A study of Mus musculus with 2 samples.

Results

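The genes described here are the 56 annotated mouse genes of the WNT pathway whose symbols name a WNT ligand, a Frizzled receptor, an R-spondin, an LGR receptor, a secreted Frizzled-related protein or a Dickkopf protein, together with Lrp5, Lrp6, Znrf3, Rnf43, Axin1, Axin2, Ctnnb1, Apc, Lef1, Tcf7, Tcf7l1 and Tcf7l2. The rule uses symbols and no measured value, and picks them from 55536 annotated genes; all 56 are annotated as protein coding. They comprised 19 ligands, 12 receptors, 9 genes of the R-spondin axis, 8 secreted inhibitors, 4 genes of β-catenin and its destruction complex and 4 TCF and LEF transcription factors. The study measured total RNA from the adrenal gland of 4-day-old female B6CASTF1/J mice, a first-generation hybrid of C57BL/6J and CAST/EiJ, in 1 group of 2 biological replicates with no treatment or mutation given in the labels. Each library was made from 300 ng of RNA with a directional kit after depletion of ribosomal RNA, with ERCC spike-in RNAs added. No second condition was measured, so the values below are levels in the gland and differences between 2 libraries. The labels disagree on the second animal: replicate 2 is numbered as replicate 1 where its library is described and differently where its tissue is described, and a single donor record covers both. Standard deviations therefore measure only the spread between these 2 libraries. The p-values set the counts of the 2 libraries against counting error and hold no estimate of the spread between animals.

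WNT proteins are secreted lipid-modified ligands that bind a Frizzled receptor together with the co-receptor LRP5 or LRP6, which stops the APC and AXIN scaffold from marking β-catenin for destruction. β-catenin then joins TCF and LEF factors on DNA, while R-spondins bound to LGR receptors raise the response by removing the ubiquitin ligases ZNRF3 and RNF43, which clear Frizzled from the cell surface. In the mouse adrenal cortex, Rspo3 is known from the capsule, Wnt4 and active β-catenin from the zona glomerulosa below it, and Znrf3 as a brake on cortical growth.

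The libraries held 31838341 expected counts in replicate 1 and 32931868 in replicate 2, so that a count of 0 allows up to 9.42e-06% of the counts in replicate 1 and 9.11e-06% in replicate 2 (3 counts, counting error only). Spike-ins took 0.90% of the counts in replicate 1 and 0.92% in replicate 2. Markers of the labelled tissue were present. All 8 zona fasciculata, all 8 zona glomerulosa, all 8 chromaffin cell and all 10 capsule or fibroblast genes reached 1 TPM in both libraries. TPM counts transcripts scaled to a fixed library total and to length. None of 5 ovary genes reached it, but all 6 skeletal muscle and all 6 liver genes did, as did 59.3% of all protein-coding genes. Passing 1 TPM therefore does not by itself tell tissues apart. The zona fasciculata genes summed to 6145 TPM in replicate 1 and 6762 in replicate 2. The libraries differed in RNA of neighbouring organs. Summed over 7 pancreas genes the level was 4145 TPM in replicate 1 against 0.59 TPM in replicate 2, over 10 kidney genes 137 against 15.4 TPM, over 6 skeletal muscle genes 275 against 1767 TPM and over 6 liver genes 110 against 461 TPM. In a whole gland, fewer cells of a type and less RNA per cell cannot be told apart.

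Levels are given in TPM, which is scaled to transcript length and can therefore be set side by side between genes. A gene was counted as detected when it reached 1 TPM in both libraries. By that rule 37 of the 56 genes were detected and 19 were not, while 59.3% of all 22028 protein-coding genes were detected. The mean level was at least 5 TPM for 25 of the genes, at least 10 TPM for 16 and at least 20 TPM for 7. Detection differed between the roles: 6 of 19 ligands were detected, against 10 of 12 receptors, 7 of 9 genes of the R-spondin axis, 6 of 8 secreted inhibitors and all 8 intracellular genes. The summed level of the ligands was 50.2 TPM in replicate 1 and 56.4 in replicate 2, a mean of 53.3 ± 4.37 TPM (SD, n = 2). The receptors summed to 140 ± 10.1 TPM, the R-spondin axis to 83.8 ± 4.32 TPM, the secreted inhibitors to 42.2 ± 7.09 TPM, β-catenin and its scaffold to 327 ± 7.01 TPM and the TCF and LEF factors to 52.4 ± 3.42 TPM (SD, n = 2 each). These sums depend on the quantification: a second deposited quantification of the same libraries gave 92.3 TPM for the ligands and 236 TPM for the receptors.

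**Figure D1:**
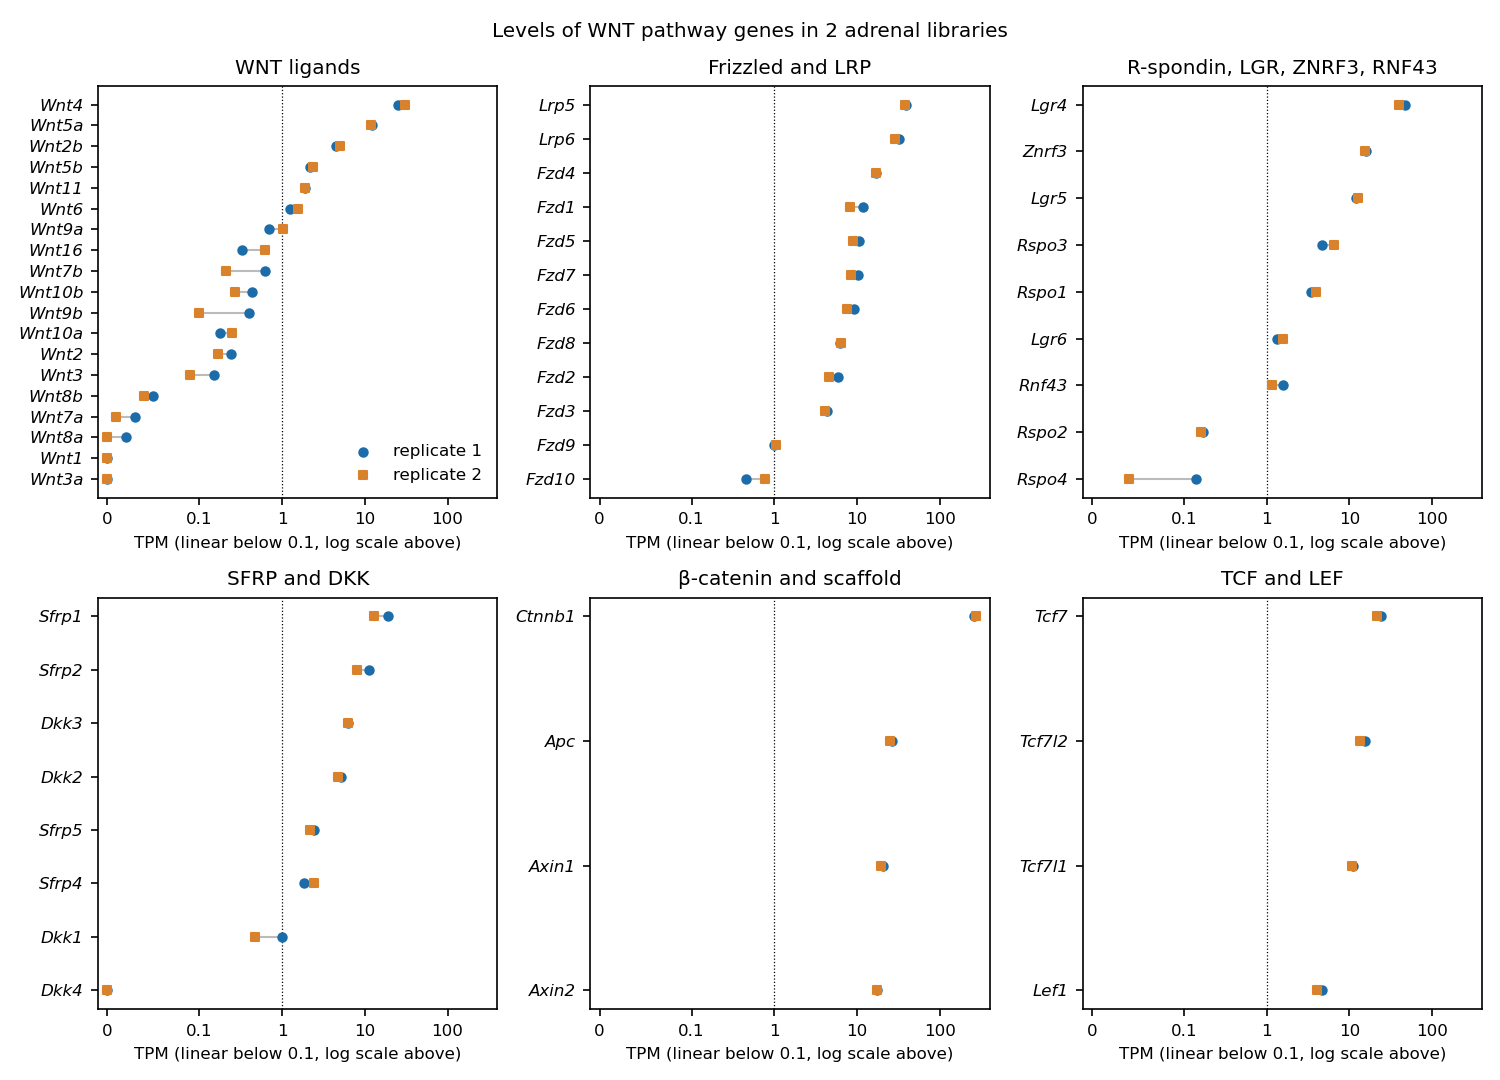
Deposited gene level in TPM (linear below 0.1, log scale above) of the 56 WNT pathway genes, with a circle for replicate 1, a square for replicate 2 and a panel for each role. The dotted line marks the detection level of 1 TPM: 13 of the 19 ligands have a library to its left, while all β-catenin scaffold and TCF and LEF genes lie to its right.

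Wnt4 was the highest ligand in both libraries. It lies on the plus strand of chromosome 4 (137277489 to 137299726, mm10), has a single annotated transcript, and encodes a ligand needed for adrenal aldosterone production in the mouse. Its level was 25.0 TPM in replicate 1 and 31.0 in replicate 2, a mean of 28.0 ± 4.23 TPM (SD, n = 2), which placed it at rank 2953 among protein-coding genes. It supplied 49.9% and 55.0% of all ligand TPM. The level in the second quantification was 42.1 TPM in replicate 1 and 51.1 in replicate 2, with the same library higher. The 104 bases directly before the first annotated exon of Wnt4 are shown because they precede the only annotated transcript of the highest ligand. They come from the RefSeq promoter table (GRCm38.p6, chr4:137277385-137277488, plus strand), with CG pairs in capitals.
Wnt4: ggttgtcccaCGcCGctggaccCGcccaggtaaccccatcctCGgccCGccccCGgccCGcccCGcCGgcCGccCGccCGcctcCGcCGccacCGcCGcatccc
CG pairs occurred 16 times in this stretch, and 83.7% of its bases were G or C.

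Wnt5a, a ligand best known for signalling without β-catenin, followed with 12.1 TPM in replicate 1 and 11.8 in replicate 2. Wnt2b, which acts through β-catenin, had 4.50 and 4.96 TPM. The levels of Wnt4, Wnt5a and Wnt2b were thus apart in both libraries. The remaining detected ligands were Wnt5b with 2.21 and 2.38 TPM, Wnt11 with 1.91 and 1.89 TPM, and Wnt6 with 1.24 and 1.58 TPM. Wnt9a lay at the edge of the detection rule, with 0.69 TPM in replicate 1 and 1.02 in replicate 2. Together the 13 ligands that were not detected gave 3.16 TPM in replicate 1 and 2.79 in replicate 2. By mean level that group ran from Wnt9a through Wnt16, Wnt7b, Wnt10b, Wnt9b, Wnt10a and Wnt2, and from Wnt16 to Wnt2 each range overlapped that of the next, although Wnt16 and Wnt10b lay wholly above Wnt10a and Wnt2. Wnt1 and Wnt3a were listed at 0 in both libraries and in the second quantification as well. A count of 0 allows up to 0.0428 TPM in replicate 1 and 0.0413 in replicate 2 for Wnt1, and up to 0.0366 and 0.0354 TPM for Wnt3a.

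Of the ligand genes, 8 form 4 pairs of neighbours less than 100000 bases apart. Wnt3a and Wnt9a on chromosome 11 are transcribed away from each other with a gap of 16175 bases, and only Wnt9a gave counts, 68 in replicate 1 and 105 in replicate 2. Wnt10b and Wnt1 on chromosome 15 are also divergent, 11706 bases apart, with 26 and 19 counts for Wnt10b and 0 for Wnt1. Wnt6 and Wnt10a on chromosome 1 run in the same direction 6193 bases apart, with 75 and 99 counts for Wnt6 and 5 and 15 for Wnt10a. Wnt9b and Wnt3, a divergent pair with a gap of 24328 bases, had 54 and 14 counts for Wnt9b and 14 and 9 for Wnt3. The stretches before the first exons of Wnt3a and Wnt9a are printed because the genes are neighbours of which one was at 0 and the other at the detection level. Both are from RefSeq (GRCm38.p6), the first on the minus strand at chr11:59290753-59291001 and the second on the plus strand at chr11:59306680-59306927, with CG pairs in capitals.
Wnt3a: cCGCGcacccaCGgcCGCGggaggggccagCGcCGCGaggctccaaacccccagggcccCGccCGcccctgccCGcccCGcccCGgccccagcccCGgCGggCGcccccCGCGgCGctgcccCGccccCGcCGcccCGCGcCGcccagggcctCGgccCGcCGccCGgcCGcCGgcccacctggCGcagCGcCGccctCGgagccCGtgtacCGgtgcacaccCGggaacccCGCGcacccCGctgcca
Wnt9a: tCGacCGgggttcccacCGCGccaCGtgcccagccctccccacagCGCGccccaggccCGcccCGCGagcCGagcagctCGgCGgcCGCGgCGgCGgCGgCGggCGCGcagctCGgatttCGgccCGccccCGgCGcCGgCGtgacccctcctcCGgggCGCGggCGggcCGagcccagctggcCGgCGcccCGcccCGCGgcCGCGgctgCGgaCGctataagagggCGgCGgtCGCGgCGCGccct
The Wnt3a stretch held 41 CG pairs in 249 bases and the Wnt9a stretch 48 in 248 bases, with 87.6% and 84.3% G or C.

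Among the receptors, the co-receptors Lrp5 and Lrp6 led. Lrp5 had 38.8 TPM in replicate 1 and 37.7 in replicate 2, and Lrp6 had 32.3 and 28.6 TPM. Their combined level, 71.1 TPM in replicate 1 against 66.3 in replicate 2, was close to the 76.5 and 67.0 TPM of the 10 Frizzled genes together. Fzd4, which in mouse also serves the ligand norrin, was the highest Frizzled gene, with 17.0 TPM in replicate 1 and 17.1 in replicate 2. Fzd1 had 11.7 and 8.13 TPM, Fzd5 10.6 and 8.94 TPM, Fzd7 10.3 and 8.47 TPM, and Fzd6 9.16 and 7.49 TPM. The ranges of neighbours in this order overlapped, although within each library Fzd6 was the lowest of these 4 genes and Fzd5 was above Fzd7. The second quantification kept Fzd5 above Fzd7 but had Fzd6 lowest in neither library. It gave Fzd6 18.2 TPM against 17.1 for Fzd7 in replicate 1, and 13.9 against 13.4 for Fzd1 in replicate 2. Fzd8 had 6.21 and 6.36 TPM, Fzd2 5.82 and 4.63 TPM, and Fzd3, known for planar cell polarity, 4.35 and 4.08 TPM. Only Fzd9, with 0.99 and 1.06 TPM, and Fzd10, with 0.45 and 0.77 TPM, missed the detection rule.

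In the R-spondin axis, Lgr4 and Lgr5 were above every R-spondin gene in both libraries, while Lgr6 was below Rspo3 and Rspo1. Lgr4, an R-spondin receptor, had 47.6 TPM in replicate 1 and 39.5 in replicate 2, a mean of 43.6 ± 5.73 TPM (SD, n = 2), and made up 54.8% and 48.9% of the axis. Its relative Lgr5, a stem cell marker in the intestine, had 12.1 and 12.6 TPM, and Lgr6 had 1.32 and 1.58 TPM. The 3 LGR genes together gave 61.0 TPM in replicate 1 and 53.7 in replicate 2, against 8.44 and 10.7 TPM for the 4 R-spondin genes, a ratio of 7.23 in replicate 1 and 5.03 in replicate 2, with most of the LGR sum from Lgr4. Rspo3 was the highest R-spondin with 4.65 and 6.50 TPM, and Rspo1 followed with 3.48 and 3.96 TPM. Rspo2 had 0.17 and 0.16 TPM and Rspo4 0.14 and 0.04 TPM. Of the ubiquitin ligases that R-spondins remove, Znrf3 had 15.8 TPM in replicate 1 and 15.3 in replicate 2, while Rnf43 had 1.56 and 1.16 TPM.

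The secreted inhibitors were led by Sfrp1, which binds WNT proteins, with 19.2 TPM in replicate 1 and 13.1 in replicate 2. Sfrp2 followed with 11.2 and 8.00 TPM, and Sfrp5 had 2.45 and 2.21 TPM and Sfrp4 1.83 and 2.45 TPM, which could not be ordered. The 4 SFRP genes together gave 34.7 TPM in replicate 1 and 25.8 in replicate 2. The Dickkopf genes summed to 12.5 and 11.4 TPM, nearly all of it from Dkk3, with 6.32 and 6.20 TPM, and Dkk2, an LRP5 and LRP6 ligand, with 5.17 and 4.73 TPM. Dkk1, the classical LRP5 and LRP6 antagonist, had 0.99 and 0.47 TPM. Dkk4 was listed at 0 in both libraries, but the second quantification assigned it 13 counts in replicate 1 and 6 in replicate 2 (0.623 and 0.277 TPM), so its absence rests on the quantification.

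All 4 intracellular scaffold genes were detected. Ctnnb1, which encodes β-catenin, had 258 TPM in replicate 1 and 271 in replicate 2, a mean of 264 ± 8.92 TPM (SD, n = 2), and ranked 164 among protein-coding genes. It made up 36.4% and 39.2% of the TPM of all 56 genes. Apc, a destruction complex scaffold, had 26.4 and 24.8 TPM, and Axin1, the constitutive scaffold, had 20.4 and 19.3 TPM. Axin2, a scaffold that is itself a classical target of β-catenin, had 17.5 TPM in each library (17.45 in replicate 1 and 17.53 in replicate 2). The 250 bases before its annotated start are shown because Axin2 is widely read as a reporter of the pathway. They are from RefSeq (GRCm38.p6, chr11:108920099-108920348, plus strand), with CG pairs in capitals.
Axin2: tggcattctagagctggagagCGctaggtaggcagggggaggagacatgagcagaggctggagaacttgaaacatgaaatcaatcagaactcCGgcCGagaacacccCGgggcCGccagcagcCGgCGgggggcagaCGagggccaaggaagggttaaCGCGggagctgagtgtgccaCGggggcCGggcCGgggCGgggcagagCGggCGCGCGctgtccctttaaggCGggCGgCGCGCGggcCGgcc
This stretch held 24 CG pairs and 69.2% G or C, and none of the TCF words described below.

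The nuclear effectors of β-catenin were all detected, and Tcf7 was the highest. It had 23.9 TPM in replicate 1 and 21.7 in replicate 2. Tcf7l2 had 15.2 and 13.4 TPM, Tcf7l1, known chiefly as a repressor of target genes, 11.1 and 10.8 TPM, and Lef1 4.62 and 4.03 TPM. No neighbours in this order overlapped. The order of Tcf7l2 and Tcf7l1 depended on the quantification. The second gave Tcf7l2 28.8 TPM in replicate 1 and 26.1 in replicate 2, against 25.8 and 30.2 TPM for Tcf7l1. In the first quantification Tcf7 held 43.5% of the summed TPM in replicate 1 and 43.4% in replicate 2.

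Differences between the libraries were taken as the log2 ratio of replicate 1 over replicate 2, from counts scaled by TMM. Ratios were judged for the 35 genes with a mean count of 100 or more. None of the 35 was 2-fold apart, while 3.21% of the 13734 genes tested were (1.71% higher in replicate 1 and 1.5% higher in replicate 2). An exact conditional binomial test, Benjamini-Hochberg adjusted over those 13734 genes, compared the reads of the 2 libraries and not conditions: 13 of the 35 genes differed beyond counting error, with 33.0% of all genes tested as background. Of the 13, 7 were higher in replicate 1 (14.3% of all genes) and 6 were higher in replicate 2 (18.7% of all genes). The median log2 ratio of the 35 was 0.01, against -0.02 over all genes tested, and the median size of the log2 ratio was 0.14 against 0.11. Sfrp1 had 2527 counts in replicate 1 and 1781 in replicate 2, for a log2 ratio of 0.51, with a 95% counting interval from 0.42 to 0.60 (exact binomial adjusted p = 5.9e-29). Fzd1 had 1475 and 1061 counts, a log2 ratio of 0.48 (0.36 to 0.59). Sfrp2, Fzd2, Fzd5, Fzd7 and Lgr4 were the other genes higher in replicate 1, with log2 ratios between 0.19 and 0.45. All 4 Frizzled genes among the 13 were thus higher in the same library, a pattern seen after the values were known. Outside the 13, Fzd6 (0.13) and Fzd3 (0.01) had log2 ratios above 0, and Fzd4 (-0.05) and Fzd8 (-0.08) below 0. On the other side, Rspo3 had 414 counts in replicate 1 and 610 in replicate 2, a log2 ratio of -0.55 (-0.74 to -0.37; exact binomial adjusted p = 1.5e-08). Wnt4 had 3156 and 4043 counts, a log2 ratio of -0.35 (-0.42 to -0.29; exact binomial adjusted p = 1.1e-23). Wnt5a, Lgr5, Lgr6 and Ctnnb1 were the other genes higher in replicate 2, with log2 ratios between -0.31 and -0.06. For Wnt5a the counts (1685 in replicate 1 and 1987 in replicate 2) and the TPM (12.1 and 11.8) ran in opposite directions. The same libraries differed in capsule and fibroblast genes, of which 3 of 10 were higher in replicate 1 and 5 in replicate 2, among them Wt1 with 11.99 against 6.17 TPM and Dcn with 90.7 against 117 TPM. Of the zona glomerulosa genes 2 of 8 were higher in replicate 1 and 1 in replicate 2, while 7 of 8 zona fasciculata, 7 of 8 chromaffin cell and 5 of 6 macrophage genes were higher in replicate 2 and none in replicate 1. Their part in the ratios of Sfrp1, Rspo3, Wnt4 and the Frizzled genes was not tested, nor was that of RNA from neighbouring organs.

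**Figure D2:**
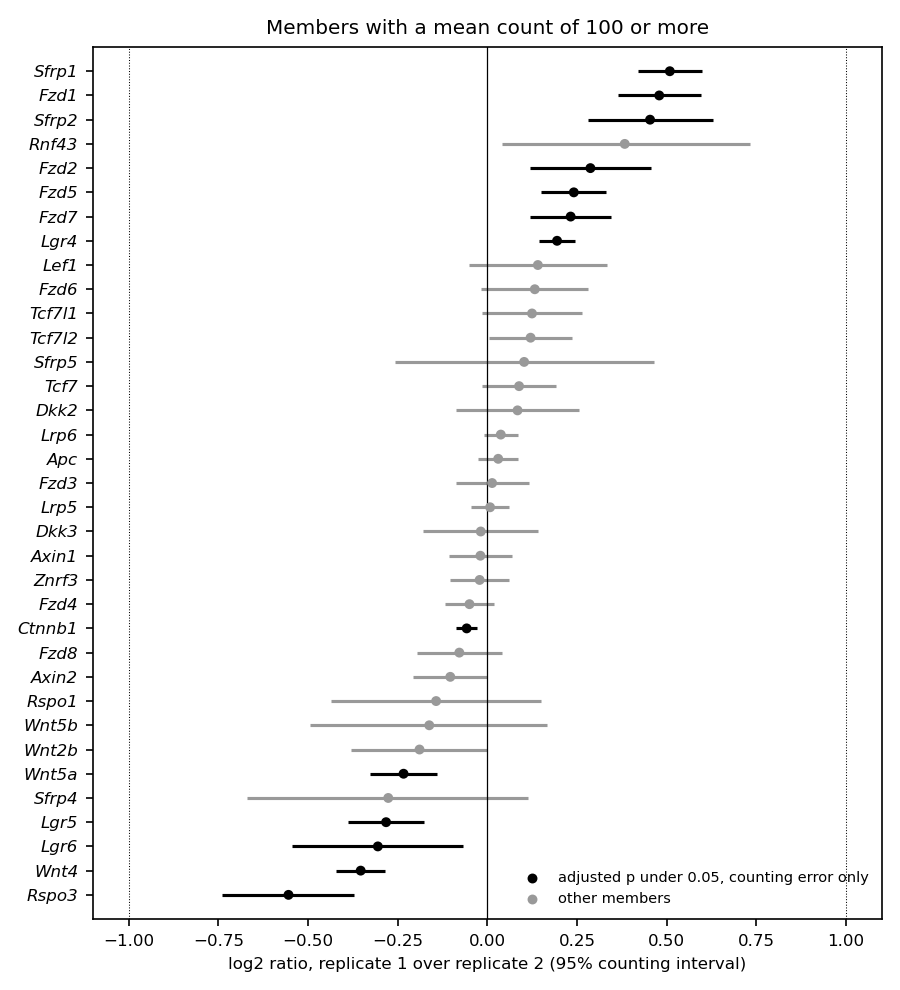
Log2 ratio of replicate 1 over replicate 2 (horizontal axis, TMM-scaled counts) for the 35 WNT pathway genes with a mean count of 100 or more, with 95% counting intervals as bars. The 13 black points passed the exact binomial test after adjustment, and every point lies between the dotted lines that mark 2-fold.

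The genes that lay farther apart than 2-fold all had fewer counts. Below are those with a mean count of at least 20, picked out after their values were seen. Wnt9b had 54 counts in replicate 1 and 14 in replicate 2, a log2 ratio of 1.91 (1.08 to 2.91). Wnt7b had 50 and 22 counts, a log2 ratio of 1.17 (0.44 to 1.98), and Dkk1 had 71 and 35 counts, a log2 ratio of 1.01 (0.42 to 1.65). Wnt16 was higher in replicate 2, with 11 and 31 counts, a log2 ratio of -1.45 (-2.63 to -0.46). Wnt9b and Wnt7b are known in mouse from the collecting duct lineage of the kidney. The 8 kidney genes with enough counts were all more than 2-fold higher in replicate 1, and 4 of 10 kidney genes reached 1 TPM in both libraries. The collecting duct gene Aqp2 had 4.08 TPM in replicate 1 and 0.79 in replicate 2. The part of kidney RNA in the Wnt9b and Wnt7b values was not tested.

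**Figure D3:**
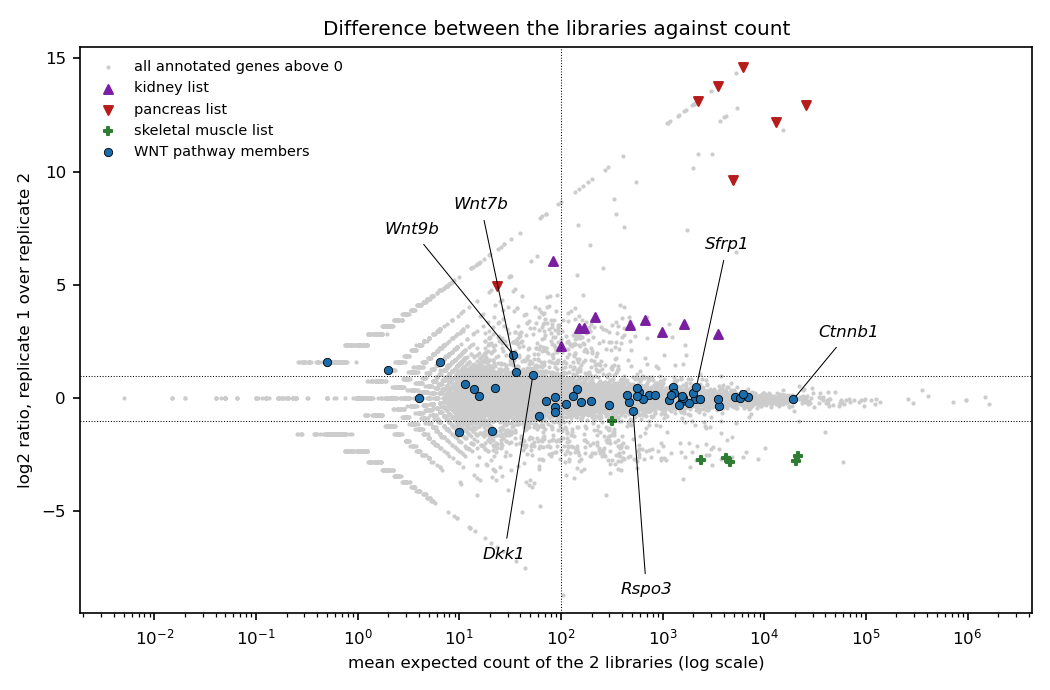
Log2 ratio of replicate 1 over replicate 2 against the mean expected count of the 2 libraries (log scale) for every annotated gene above 0 (grey), the WNT pathway genes (blue) and the kidney, pancreas and skeletal muscle lists. Right of the dotted line at 100 counts no WNT pathway gene leaves the 2-fold band, whereas pancreas genes reach log2 ratios above 10 and muscle genes lie below it.

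Transcripts were compared for the 23 genes at 5 TPM or more in both libraries. Of these, 7 have 1 annotated transcript and 16 have several. In all 23 the leading transcript was protein coding, and its share of the gene's TPM had a median of 76.5%, or 70.2% over the 16 with several transcripts. For 15 of the 16 the second quantification named the same leading transcript, and the exception was Fzd6. The size of the share was less stable. It moved by more than 1 SD of the 2 libraries in 14 of the 16 and stayed within it in 2. The mean share went from 59.9% to 44.5% for Wnt5a and from 25.3% to 37.6% for Apc. Leading shares under 50% were found for Apc, Tcf7l2, Ctnnb1 and Fzd6. In Ctnnb1, transcripts that encode the full 781 codons held 53.0% of its TPM in replicate 1 and 51.0% in replicate 2, and retained-intron transcripts held 43.1% and 43.2%. Most of the retained-intron TPM (111 and 117) came from 1 transcript, Ctnnb1-215, with 77.5 and 86.7 TPM. It starts at base 120959216, near the end of the gene at 120960507. In expected counts it had 2848 and 3293, against 13150 and 12463 for Ctnnb1-201, which encodes the full 781 codons. These TPM shares are therefore not shares of the reads of Ctnnb1. The second quantification gave a lower retained-intron share of 22.6% and 22.7% and put the full-length share at 47.7% and 49.3%. Apc had 53.8% and 55.4% of its TPM in coding transcripts, against 71.5% and 68.4% in the second quantification. Both libraries are total RNA, which also holds unspliced RNA.

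**Figure D4:**
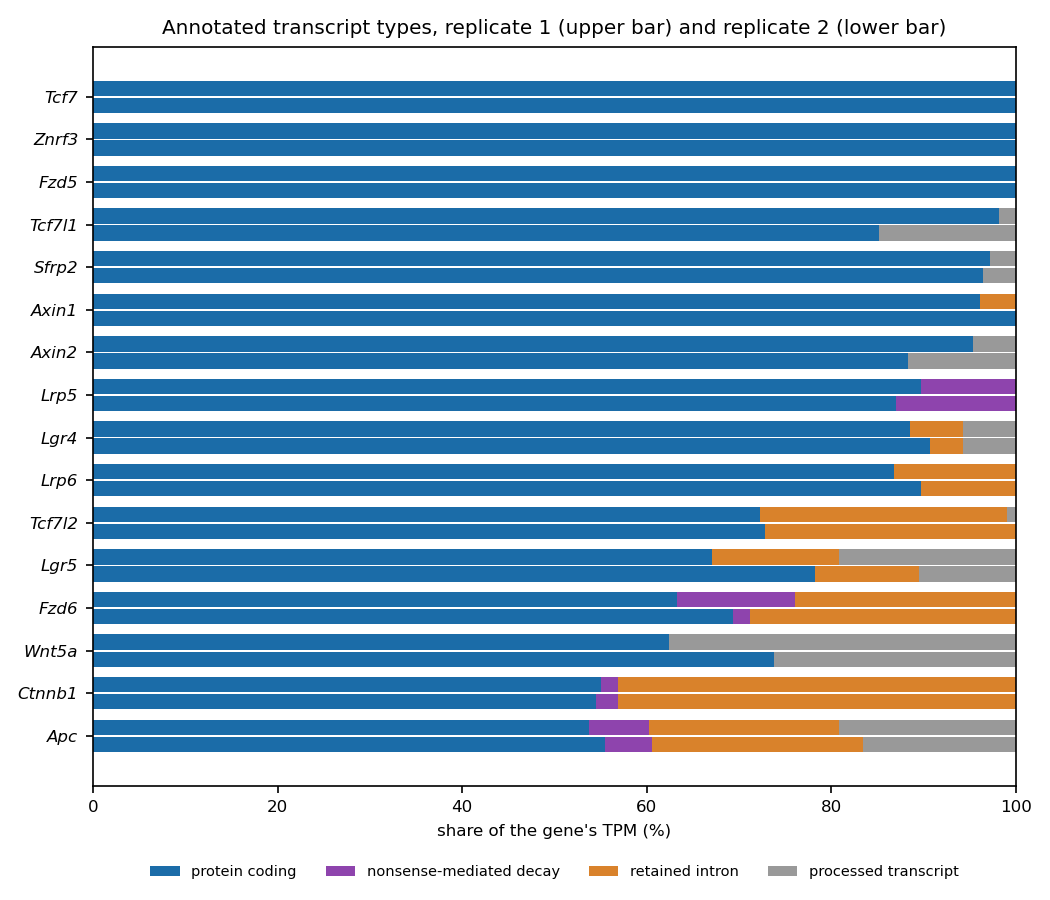
Share of each gene's TPM (%) by annotated transcript type for the 16 WNT pathway genes with several transcripts at 5 TPM or more, with the upper bar for replicate 1 and the lower for replicate 2. Tcf7, Znrf3 and Fzd5 are coding throughout, and the retained-intron part of Ctnnb1 spans 43.1% and 43.2%, most of it from Ctnnb1-215.

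The TCF and LEF factors bind β-catenin through their first residues. Lef1 transcripts with the upstream coding start, which include that end, held 88.8% of Lef1 TPM in replicate 1 and 89.6% in replicate 2 (86.2% and 88.5% in the second quantification). Tcf7 has 2 annotated transcripts, Tcf7-201 with 16.9 TPM in replicate 1 and 15.5 in replicate 2, and Tcf7-202 with 6.95 and 6.20 TPM. Their start sites are 443 bases apart and both begin the same 303-codon reading frame. Tcf7l2 has 22 annotated transcripts, of which Tcf7l2-209, with 459 codons, held 33.6% and 37.7% of the gene's TPM. The 2 Tcf7l2 transcripts with the longest reading frames held 15.4% and 14.5% of its coding TPM, or 25.2% and 27.0% in the second quantification, and they share their coding start with Tcf7l2-209.

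Annotated start sites far apart were compared for Znrf3, Wnt5a and Wnt5b. Znrf3-201, which encodes 913 codons, had 8.03 TPM in replicate 1 and 7.87 in replicate 2. Znrf3-203 starts 63107 bases downstream, encodes 809 codons, and had 4.80 and 4.84 TPM. The second quantification kept the order, with 13.2 and 12.7 TPM for Znrf3-201 and 9.62 and 9.64 TPM for Znrf3-203. Wnt5a-201, with 380 codons, had 6.48 and 7.79 TPM, and Wnt5a-202, which starts 6655 bases downstream and has 360 codons, had 1.08 and 0.88 TPM. The second quantification gave Wnt5a-202 a much larger level of 5.6 and 6.34 TPM. For Wnt5b, the most upstream transcript Wnt5b-204 had 1.22 and 1.1 TPM, Wnt5b-202, which starts 77136 bases downstream, had 0.99 and 0.78 TPM, and Wnt5b-201, 94961 bases downstream of Wnt5b-204, was listed at 0 in both. The quantifications did not settle this order, since the second gave Wnt5b-202 0 TPM in replicate 1 and 2.60 in replicate 2, and Wnt5b-201 1.28 and 0 TPM.

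**Figure D5:**
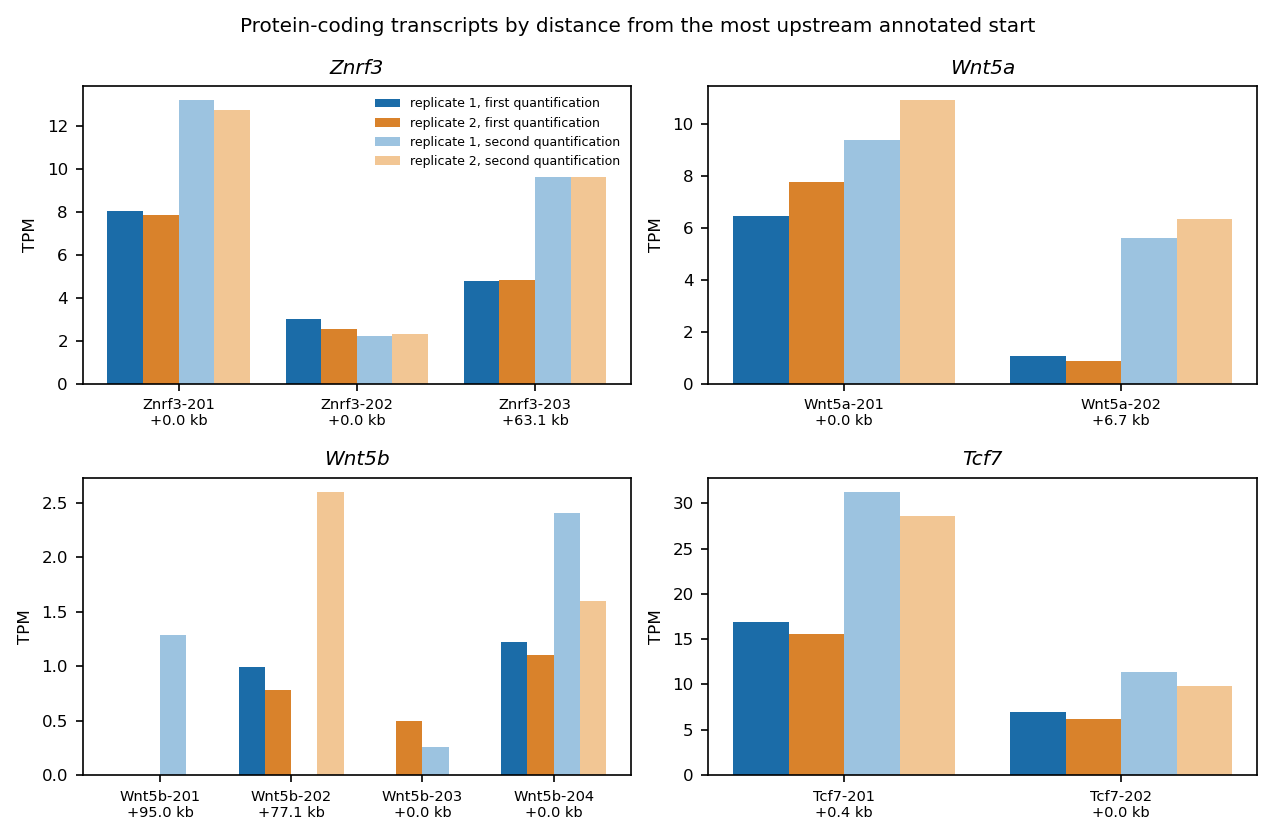
TPM of the protein-coding transcripts of Znrf3, Wnt5a, Wnt5b and Tcf7, labelled with the distance of their start from the most upstream annotated start in kilobases. Dark bars give the first quantification and pale bars the second, blue for replicate 1 and orange for replicate 2; the Znrf3 order is the same in both, and the Wnt5b order is not.

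The windows before the 3 Wnt5b start sites are printed to show how the windows of 1 gene differ in sequence; the levels of the transcripts behind them depended on the quantification. All are 250 bases from RefSeq (GRCm38.p6) on the minus strand: Wnt5b-204 at chr6:119544348-119544597, Wnt5b-202 at chr6:119467212-119467461 and Wnt5b-201 at chr6:119449387-119449636. Capitals mark the TCF words CTTTGAA or CTTTGAT, or else CTTTGTA or CTTTGTT, on either strand.
Wnt5b-204: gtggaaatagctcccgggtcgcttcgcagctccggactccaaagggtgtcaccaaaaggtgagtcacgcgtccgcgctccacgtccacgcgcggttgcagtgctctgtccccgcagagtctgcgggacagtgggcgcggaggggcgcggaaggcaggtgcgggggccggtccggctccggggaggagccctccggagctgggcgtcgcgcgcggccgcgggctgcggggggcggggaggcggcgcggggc
Wnt5b-202: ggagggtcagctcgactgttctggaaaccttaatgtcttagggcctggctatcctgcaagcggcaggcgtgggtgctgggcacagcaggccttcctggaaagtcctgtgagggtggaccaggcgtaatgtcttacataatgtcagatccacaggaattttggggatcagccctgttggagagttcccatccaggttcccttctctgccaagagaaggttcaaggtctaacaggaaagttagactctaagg
Wnt5b-201: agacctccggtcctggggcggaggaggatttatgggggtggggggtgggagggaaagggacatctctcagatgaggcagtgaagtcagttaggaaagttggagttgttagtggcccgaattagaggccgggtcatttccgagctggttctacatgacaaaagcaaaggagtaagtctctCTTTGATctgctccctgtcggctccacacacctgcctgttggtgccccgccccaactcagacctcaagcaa
The only TCF word, CTTTGAT, lay 71 bases before the start of Wnt5b-201. The window of Wnt5b-204 held 35 CG pairs, that of Wnt5b-202 held 4 and that of Wnt5b-201 held 7.

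RefSeq promoter windows were matched by symbol for 36 of the 56 genes, in 46 windows, of which 24 sat exactly at an annotated transcript start. These 4 words of 7 letters, searched on both strands with overlapping matches kept, describe the core that TCF and LEF factors bind. A word was found in the 250 bases before the start in 6 of the 46 windows, 13.0%, against 14.8% of all 32851 windows in the table. The 6 windows belonged to Fzd7, Lef1, Wnt5b, Wnt11, Dkk1 and Tcf7l2, and those of Lef1, Tcf7l2 and Wnt5b lie at starts far downstream of the gene's first annotated start. The median G and C content of the 46 windows was 66.8%, against 52.4% over all windows. It was 65.8% in the 32 windows of detected genes and 70.6% in the 14 windows of genes that were not detected. The 32 windows came from 22 genes and the 14 from 14 genes. Some detected genes thus count more than once, with further windows at downstream starts, such as Tcf7l2 with 72.8% and 40.8%. These medians therefore describe windows and do not compare genes.

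Genes of the pathway outside the 56 were taken from lists that hold 80 further genes. Of these 75 were detected, while 59.3% of all protein-coding genes were. Of the 75 with enough counts, 2 were 2-fold apart (3.21% of all genes tested), both higher in replicate 1. They were Sostdc1, a secreted WNT and BMP antagonist, with 10.3 TPM in replicate 1 and 3.72 in replicate 2, and Dact2, a Dishevelled-binding protein, with 3.29 and 1.39 TPM. Replicate 1 also held more RNA of the kidney list (137 against 15.4 TPM) and the pancreas list (4145 against 0.59 TPM). It held less of the skeletal muscle and liver lists. The part of these organs in the Sostdc1 and Dact2 values was not tested. By the exact binomial test, 18 of the 75 were higher in replicate 1 and 10 in replicate 2 after adjustment, with 14.3% and 18.7% of all genes tested as background. Among secreted and surface modulators the highest were Gpc3, a glypican, with 92.0 and 83.3 TPM, Igfbp4 with 79.5 and 74.8 TPM, and Gpc4 with 74.6 and 70.6 TPM. Each exceeded every WNT ligand in both libraries. Of the receptors and effectors outside the β-catenin branch, the GTPases Rac1 (139 and 141 TPM) and Rhoa (129 and 127 TPM) were followed by Ryk, a WNT co-receptor, with 23.2 and 21.9 TPM. A further list of 4 genes was led by Tspan12, a Fzd4 partner, with 40.6 and 45.3 TPM. Adgra2 followed with 13.0 and 12.6 TPM and Reck with 9.51 and 9.20 TPM, whereas the norrin gene Ndp had 0.18 and 0.17 TPM. In the cytoplasm the casein kinase genes led: Csnk1a1, a kinase of the destruction complex, had 126 and 122 TPM, Csnk1g2 61.8 and 58.4 TPM, and Csnk1d 58.8 and 58.01 TPM. In the nucleus the corepressor gene Ctbp1 had 96.0 and 97.6 TPM, the corepressor gene Tle3 37.6 and 45.2 TPM, and the chromatin remodeller gene Smarca4 33.9 and 32.7 TPM.

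Of 15 genes commonly listed as targets of β-catenin, 13 were detected, while 59.3% of all protein-coding genes were. Of the 15, 7 are among the 56. Ccnd1, a cyclin, had 47.2 TPM in replicate 1 and 43.8 in replicate 2, Tcf7 23.9 and 21.7 TPM, and Myc 21.4 and 20.9 TPM. Of the 12 with enough counts none was 2-fold apart, 1 was higher in replicate 1 and 5 were higher in replicate 2 by the exact binomial test after adjustment. Over all genes tested 14.3% were higher in replicate 1 and 18.7% in replicate 2. The 5 were Lgr5, Cd44, Apcdd1, Nkd1 and Notum, and the last, which encodes an enzyme that removes the lipid from WNT proteins, had 3.07 and 4.64 TPM. Dkk1 and Wif1 were the targets not detected.

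Exons of 11 of the 56 genes overlap another annotated gene on the opposite strand, and 45 overlap none. The libraries are directional by their kit, but no source used here says whether the counting used strand. The overlapping gene with the most counts was Ulk4, opposite Ctnnb1, with 232 in replicate 1 and 199 in replicate 2, against 18901 and 19728 for Ctnnb1. Ctnnb1 also overlaps a microRNA gene on its own strand, which was listed at 0. The other overlapping genes had at most 20 counts in a library.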

How the data were processed

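Total RNA-seq of adrenal gland, 2 libraries labelled as biological replicates, was analysed from tables on mouse build mm10, per the labels. The authors deposited, per the file headers, a gene table and a transcript table with expected counts and TPM, and a second transcript table with estimated counts and TPM (the second quantification). No source used here names the aligner or the counter. Gene symbols, coordinates and transcript types came from GENCODE release M21, and promoter windows (250 bases before the start were searched) from RefSeq (GRCm38.p6). Expected counts were rounded to whole numbers for scaling, ratios and the test. Those of all 56 genes were already whole within 0.005, while some other tested genes had fractional counts. Ratios used edgeR 4.0.16 TMM scaling with a prior of 0.5 counts. Genes whose mean count reached 100 were tested by an exact two-sided conditional binomial test (scipy 1.17.1) with Benjamini-Hochberg adjustment at 0.05. The test assumes counting error only and compares libraries. Its check used data simulated with counting error only, so that check cannot show how the test behaves with further spread between libraries. No edgeR or DESeq2 test was possible with 1 group. TPM values are the authors' and carry 2 libraries' spread. R 4.3.3 and DESeq2 1.42.0 gave alternative size factors. The spike-ins, other count minimums, detection levels, posterior mean TPM, the second quantification and leaving out each library were also tried.

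Values are named for genes at a mean of 5 TPM or more, the 3 highest of each class, genes 2-fold apart at a mean count of 100, genes at 0 in both libraries, and, of other pathway lists, the 3 highest and any 2-fold apart. Some further genes were named after their values were seen. The 56 genes and the lists were chosen with earlier results of these data known.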

Additional observations from a re-analysis of the deposited data

How the results depend on the processing

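No paired analysis was possible because the series holds 1 group. At 5 TPM, 23 genes were detected, and without either replicate the count was 37 to 39. Summed TPM rose in the second quantification, and more when values were rescaled to nuclear protein-coding genes: ligands 92.3 and 146, receptors 236 and 386, R-spondin axis 152 and 230.03, secreted inhibitors 75.1 and 116, β-catenin and scaffold 579 and 899, TCF and LEF 104 and 144. The order of the classes by sum put β-catenin first in each. With single replicates the sums spanned 50.2 to 56.4 for ligands, 133 to 148 for receptors, 80.7 to 86.9 for the R-spondin axis, 37.2 to 47.2 for inhibitors, 322 to 332 for scaffold and 49.98 to 54.8 for TCF and LEF. The genes 2-fold apart numbered 4 at a mean count of 20 (5.66% of all genes) and 8 with no filter (12.9%), and 0 under DESeq2 size factors, spike-in scaling, the TPM ratio and the second quantification. Those beyond counting error numbered 13 under DESeq2 size factors, 17 in the second quantification (37.4% of all genes), and 19 under spike-in scaling (37.1%), which moved the median ratio of all genes to 0.06. The median leading transcript share spanned 73.6% to 79.4% with single replicates and was 73.9% in the second quantification. There, 14 of the 16 shares of genes with several transcripts moved by more than 1 SD. All 26 named levels moved by more than 1 SD in the second quantification. Depth limits the 21 genes under 100 counts.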
